A study of Mus musculus with 20 samples.

Results

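Muc5ac and Kpna7 are a pair of mouse genes that were bright in every tumor driven by CIC-DUX4 and dim in cells that had carried the same fusion for 48 h. They were chosen by these measured levels, high in the tumors and low at 48 h, so the differences between groups below are a description and carry no test. Each gene has 1 probe set, so 2 of the 45141 probe sets of the array, and 2 of the 12343 genes that passed a filter on low signals, are described. Both genes passed that filter through the CDS tumors, where they are bright, so passing it is no evidence about them.

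The study set out to model CIC-DUX4 sarcoma, a round cell sarcoma, in the mouse and to compare it with Ewing sarcoma. There were 6 CIC-DUX4 sarcomas (CDS), 6 Ewing sarcomas (ES), 4 samples of embryonic mesenchymal cells (eMC) transduced with pMYs-CIC-DUX4-IRES-GFP and 4 of eMC transduced with pMYs-IRES-GFP, the empty vector. The eMC samples were taken 48 h after retroviral transduction by spinofection. The CDS tumors grew under the skin of Balb/c nude mice from eMC given the fusion, so the fusion is driven by a retroviral vector, the host lacks mature T cells but keeps its other cells, and tumor RNA includes host RNA. The labels give 1 growth protocol for all tumors, under the skin of the same strain. They do not give the cells or the construct that the ES tumors grew from, and they give neither age nor sex of any animal. In bulk tissue, fewer cells of a type and less RNA per cell cannot be told apart. Nothing states that samples of a group came from separate cultures or animals, so the spread between them may be technical.

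CIC is a repressor that binds short octamers near its target genes, and the CIC-DUX4 fusion joins most of it to the activating end of DUX4, so that targets of CIC, above all the PEA3 factors Etv1, Etv4 and Etv5, are switched on. Muc5ac encodes a gel-forming mucin, a very large secreted glycoprotein made by surface mucous cells of the stomach and goblet cells of the airway, whose chains are covered with O-linked sugars. Kpna7 encodes a member of the importin alpha family, adaptors that bind a nuclear localization signal and hand the cargo to importin beta, and in mouse and cattle it is known mainly from the oocyte and the early embryo.

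The Muc5ac gene lies on chr7:141788958-141819227 and the Kpna7 gene on chr5:144983727-145009636 (GRCm38.p6), and their probe sets are 1430899_PM_at and 1437754_PM_at. Each probe set is annotated with 1 gene only. The 250 bases before the start of Kpna7 are shown because motifs of CIC and of its PEA3 targets can be looked for there. They are chr5:145009637-145009886 of GRCm38.p6, from RefSeq, read 5′ to 3′ on the minus strand, with the motif AGGAAG of the PEA3 factors in capitals.
Kpna7 upstream: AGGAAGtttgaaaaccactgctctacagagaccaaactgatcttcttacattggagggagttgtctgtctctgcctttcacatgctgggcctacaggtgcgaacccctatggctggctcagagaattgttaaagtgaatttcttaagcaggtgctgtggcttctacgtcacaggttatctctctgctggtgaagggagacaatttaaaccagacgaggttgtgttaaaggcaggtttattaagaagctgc

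The search took both strands of this window and of the same 250 bases before 32851 RefSeq starts. The octamers of CIC (TGAATGAA, TGAATGGA, TCAATGAA and TCAATGGA) had 0 matches in the Kpna7 window, and at least 1 of the 4 stands in 3.19% of all windows. AGGAAG had 1 match, at the far end of the window, and stands in 29.5% of all windows. The sequence TATAAA had 0 matches, against 12.4% of windows with it. The window is 46.0% G and C, against a median of 52.4%. A match is a run of letters and no measured binding.

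Arrays differed in the spread of their signals, so each value is given as deposited, on the scale log2(signal + 1.42), and by its place within its own array, as the percentile among all probe sets other than controls. The arrays CDS 2, eMC CIC-DUX4 5 and eMC CIC-DUX4 6 stand apart, with median deposited log2 signals of 5.63, 6.10 and 7.03 against 1.85 to 3.88 on the other 17. Fold changes are also given after quantile normalization, which gives every array the same distribution. As a check of the labels, Etv1, Etv4 and Etv5 averaged 14.80, 12.98 and 14.84 in CDS tumors, against 9.12, 3.80 and 10.53 in ES tumors. In ES tumors Etv1 and Etv5 were thus about as bright as in eMC CIC-DUX4, given below. As markers of host cells, 7 to 9 of 9 macrophage genes lay above the 75th percentile of the array in each CDS and each ES tumor, and 5 to 6 of the 9 in each eMC array. Of 11 mesenchymal genes, 8 did so in every CDS tumor and 10 in each eMC array. Of 8 Ewing sarcoma markers 1 to 4 did so in an ES tumor and 3 in every CDS tumor, so that list did not set the ES tumors apart.

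In the CDS tumors Muc5ac was among the brightest genes of the array, and in all other samples it lay near the middle of its array or under it. Its log2 signals were 13.78 at the lowest, 14.79 at the median and 15.64 at the highest in the 6 CDS tumors, against 2.02, 2.54 and 2.74 in the 6 ES tumors. In the eMC CIC-DUX4 samples numbered 5 to 8 they were 6.03, 7.18, 2.44 and 2.32, against 3.08, 3.24, 2.64 and 2.36 in the eMC empty samples numbered 4 to 7. Every CDS tumor was above every other sample, and the other 3 groups overlapped each other.

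The 2 higher values in eMC CIC-DUX4 are those of the arrays whose whole distribution is shifted. Against their own arrays they stood at the 49.0 and 52.7 percentiles, and the other 2 eMC CIC-DUX4 samples at 49.3 and 49.9. By that measure Muc5ac lay at 99.2 to 99.8 in CDS tumors, 35.5 to 48.6 in ES tumors, 49.0 to 52.7 in eMC CIC-DUX4 and 39.7 to 49.7 in eMC with the empty vector. Among the probe sets of a CDS array Muc5ac ranked between 88 and 340 from the top. The raised signals of samples 5 and 6 thus lay near the median of arrays whose signals were raised as a whole, and in no sample outside the CDS tumors did the gene stand clear of the middle of its array.

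Kpna7, the importin alpha, was likewise bright in the CDS tumors and dim elsewhere. Its log2 signals were 12.83 at the lowest, 13.55 at the median and 14.45 at the highest in CDS tumors, against 1.99, 2.32 and 2.41 in ES tumors. In the eMC CIC-DUX4 samples numbered 5 to 8 they were 3.68, 5.92, 2.19 and 2.02, against 2.56, 2.62, 2.32 and 2.19 in the eMC empty samples numbered 4 to 7. The CDS tumors again lay above all 14 other samples, with overlap among the other groups.

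Within its arrays Kpna7 lay at the 97.8 to 99.1 percentiles in CDS tumors, 29.4 to 45.3 in ES tumors, 20.5 to 43.6 in eMC CIC-DUX4 and 23.7 to 31.0 in eMC with the empty vector. In the eMC CIC-DUX4 samples 5 and 6, with the highest signals outside the tumors, it held only the 30.4 and 20.5 percentiles, the lowest of that group. Outside the CDS tumors Kpna7 was thus under the middle of every array.

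**Figure D1:**
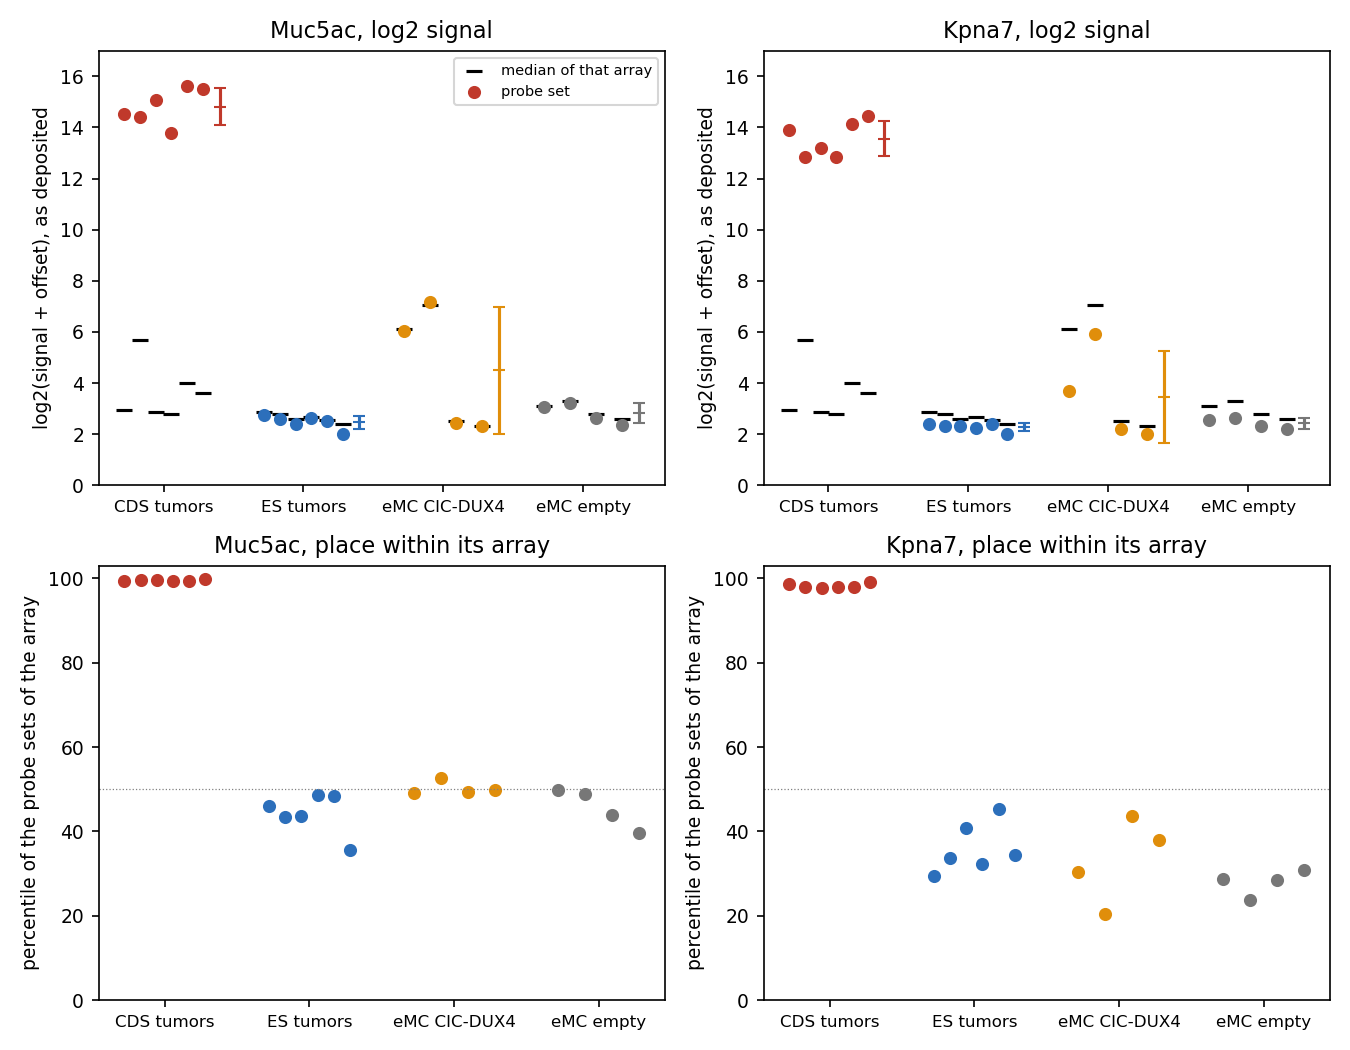
The upper panels plot the log2 signal of Muc5ac and Kpna7 in every sample of the 4 groups (points), with the mean ± SD beside each group and a black dash at the median of that sample's array. The lower panels plot the percentile of the gene among the probe sets of its array. All 6 CDS tumors stand at 97.8 or above for both genes, and the raised points of eMC CIC-DUX4 5 and 6 lie close to the raised medians of their arrays for Muc5ac (49.0 and 52.7 percentile) and under them for Kpna7.

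Against ES tumors, the comparison between the sarcomas, Muc5ac averaged 14.82 ± 0.71 in CDS tumors and 2.48 ± 0.25 in ES tumors (SD, n = 6 each). The log2 difference was 12.34 ± 0.52 (SE) as deposited and 11.47 ± 0.22 after quantile normalization, the 3rd largest of 12343 genes on both scales. Kpna7 averaged 13.56 ± 0.69 in CDS tumors and 2.28 ± 0.15 in ES tumors. Its log2 difference was 11.28 ± 0.62 as deposited, 6th of all genes, and 10.66 ± 0.26 after quantile normalization, 7th. Signals this dim measure little, so a lower bound was taken against the dip between the dim and the bright part of each ES array. By it the mean level of the CDS tumors was at least 872-fold higher for Muc5ac and at least 366-fold higher for Kpna7, as deposited. The bound compares means, so a single tumor can lie under it.

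Against the eMC that had carried CIC-DUX4 for 48 h, where Muc5ac averaged 4.49 ± 2.48 and Kpna7 3.45 ± 1.81 (SD, n = 4), the SDs are wide because of samples 5 and 6. The log2 differences of the CDS tumors were 10.32 ± 0.84 (SE) for Muc5ac and 10.11 ± 0.71 for Kpna7 as deposited, and 11.20 ± 0.18 and 10.74 ± 0.25 after quantile normalization. They ranked 3rd and 5th of all genes as deposited, and 2nd and 4th after normalization. No bound is given here, since the array of sample 6 had no dip.

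Against eMC with the empty vector, at 2.83 ± 0.40 for Muc5ac and 2.42 ± 0.20 for Kpna7 (SD, n = 4), the log2 differences of the CDS tumors were 11.99 ± 0.51 (SE) and 11.14 ± 0.59. After quantile normalization they were 11.42 ± 0.20 and 10.93 ± 0.23. The lower bounds, again for the mean level, were at least 249-fold for Muc5ac and at least 104-fold for Kpna7. The 3 comparisons share the CDS tumors.

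At 48 h neither gene was shown to differ between the fusion and the empty vector, and the groups overlapped for both. The log2 difference of eMC CIC-DUX4 over eMC empty was 1.66 ± 1.15 (SE) for Muc5ac as deposited, against a median of 2.07 over all genes tested, and 0.22 ± 0.14 after quantile normalization, where that median is 0.01. For Kpna7 it was 1.03 ± 1.04 as deposited and 0.19 ± 0.16 after normalization. Without samples 5 and 6 it was -0.45 for Muc5ac and -0.32 for Kpna7. ES tumors over eMC empty gave -0.36 ± 0.21 for Muc5ac and -0.14 ± 0.13 for Kpna7. Ordered by mean as deposited, both genes ran from CDS over eMC CIC-DUX4 and eMC empty to ES. The groups below the CDS tumors overlapped, so the order among them is not settled.

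Targets of the fusion were already up at that time. Etv5 averaged 10.62 in eMC CIC-DUX4 and 5.29 in eMC with the empty vector. Etv1 averaged 8.85 with the fusion, against 3.73 with the empty vector. In the limma fit both rose on both scales, by log2 fold changes after quantile normalization of 2.87 ± 0.12 (adjusted p = 1.8e-09) for Etv5 and 2.00 ± 0.19 (adjusted p = 2.4e-06) for Etv1. Etv4 averaged 2.74 in eMC CIC-DUX4 and 2.07 in eMC with the empty vector and did not pass the test (log2 fold change after normalization 0.15 ± 0.13, adjusted p = 0.33). The difference between the genes' responses was not tested.

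The separation from all other samples was among the widest of the array. Taking for each gene the lowest CDS tumor minus the highest of the other 14 arrays, after quantile normalization, Muc5ac was 2nd of 12343 genes at 10.72 and Kpna7 3rd at 10.02. Spx, which encodes the peptide spexin, was 1st at 11.92. Crh, the corticotropin-releasing hormone, followed at 9.48 and Clca2, a regulator of chloride channels, at 8.38. As deposited, Kpna7 was 2nd at 6.90 and Muc5ac 3rd at 6.61. Of all genes, 821 had such a gap above 0 after normalization and 285 as deposited, and 25 had a gap over 5 log2 units. The members were chosen for this pattern, so their place in the order describes them only.

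**Figure D2:**
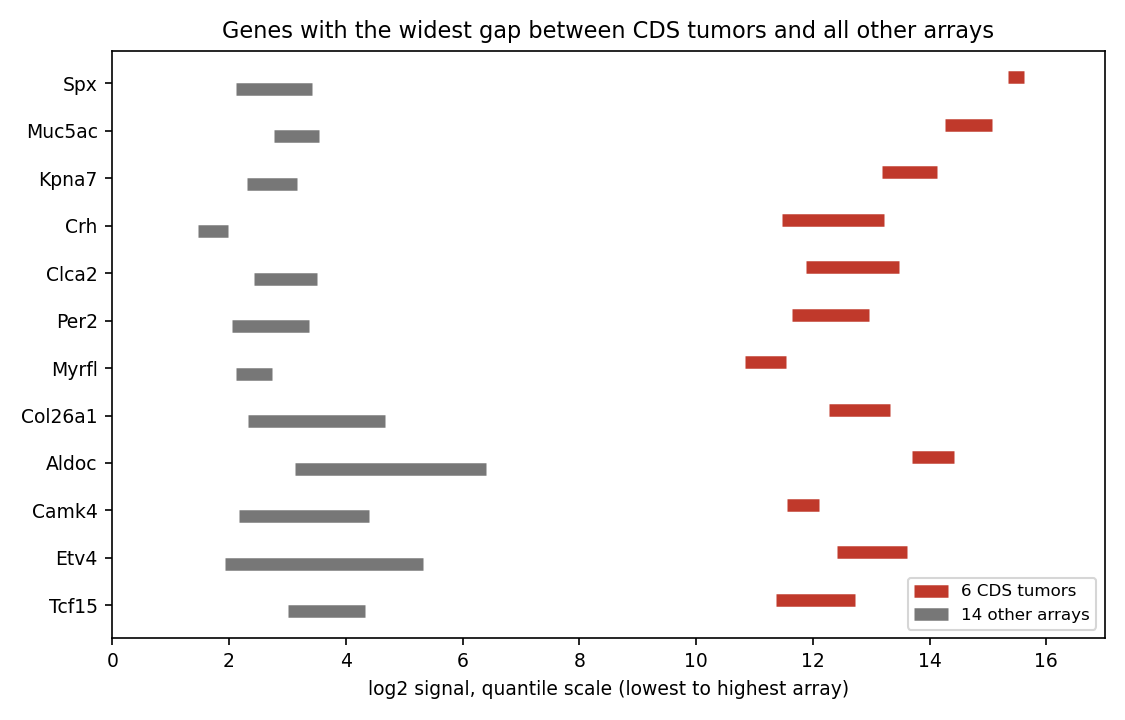
For the 12 genes with the widest gap, bars run from the lowest to the highest log2 signal after quantile normalization, red for the 6 CDS tumors and grey for the 14 other arrays. For Muc5ac the CDS tumors run from 14.26 to 15.07 and the others from 2.78 to 3.54; for Kpna7 from 13.18 to 14.13 and from 2.31 to 3.16.

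The genes whose signals ran most like Muc5ac over the 20 arrays after quantile normalization were Spx (Pearson r = 0.998), Myrfl (0.998), Kpna7 (0.998), Crh (0.997) and Tlx1 (0.997). For Kpna7 they were Myrfl (0.998), Spx (0.998), Muc5ac (0.998), Tlx1 (0.997) and Per2 (0.996). Myrfl is a relative of the myelin regulatory factor, Tlx1 is a homeobox factor and Per2 a component of the circadian clock. These coefficients rest on the step between the 6 CDS tumors and the other samples, and the arrays of a group share their condition, so they describe that step.

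Among the CDS tumors the SD was 0.71 for Muc5ac and 0.69 for Kpna7, against 0.25 and 0.15 in ES tumors. Muc5ac was 14.53, 14.41, 15.06, 13.78, 15.64 and 15.50 in the tumors numbered 1 to 6, and Kpna7 13.91, 12.86, 13.19, 12.83, 14.14 and 14.45. The tumors numbered 5 and 6 were highest and tumor 4 lowest for both. As deposited, Pearson's r between the genes was 0.785 (exact permutation p = 0.0875, n = 6) and Spearman's rho 0.886 (exact permutation p = 0.0333). Over the 5 relations computed, the adjusted values were 0.109 and 0.0556, which miss 0.05. Without the tumors farthest from the median on the x axis, CDS 4 and CDS 5, r was 0.640.

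That shared order went with features of the arrays. Kpna7 was lower in tumors whose array had a higher 75th percentile (r = -0.988, exact permutation p = 0.00278, adjusted 0.0139; rho = -0.943, adjusted exact permutation p = 0.0417), and without CDS 2 and CDS 4 r was -0.966. For Muc5ac the same relation gave r = -0.725 (exact permutation p = 0.111, adjusted 0.111; rho = -0.829, adjusted 0.0729), and -0.261 without these tumors. The trimmed mean of the linear signals was nearly the same on all 20 arrays (500.1 to 500.3). With that mean fixed, an array with more signal in its middle range has lower bright signals. A negative relation is thus partly built in, and the permutation p cannot separate that part. With the log2 difference between the 3′ and 5′ control probe sets of Actb, a measure of RNA length that was 0.80 ± 0.36 in CDS tumors and 0.25 ± 0.05 in ES tumors (SD, n = 6 each), r was 0.877 for Muc5ac (adjusted exact permutation p = 0.0417) and 0.899 for Kpna7 (adjusted 0.0347). The rho values were 0.771 (adjusted exact permutation p = 0.103) and 0.943 (adjusted 0.0417), and without CDS 5 and CDS 6 the r values were 0.608 and 0.637.

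After quantile normalization none of the 5 relations passed an adjusted exact permutation p of 0.05 by r or by rho. Between the genes r was 0.427 (exact permutation p = 0.425) and rho 0.0286, and the normalized signals ran from 14.26 to 15.07 for Muc5ac and from 13.18 to 14.13 for Kpna7. Tumor 6 was highest for both on that scale, and tumor 1 lowest for Muc5ac and second for Kpna7. The part of the scaling of the arrays or of RNA length in the order of the tumors was not tested beyond these values.

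**Figure D3:**
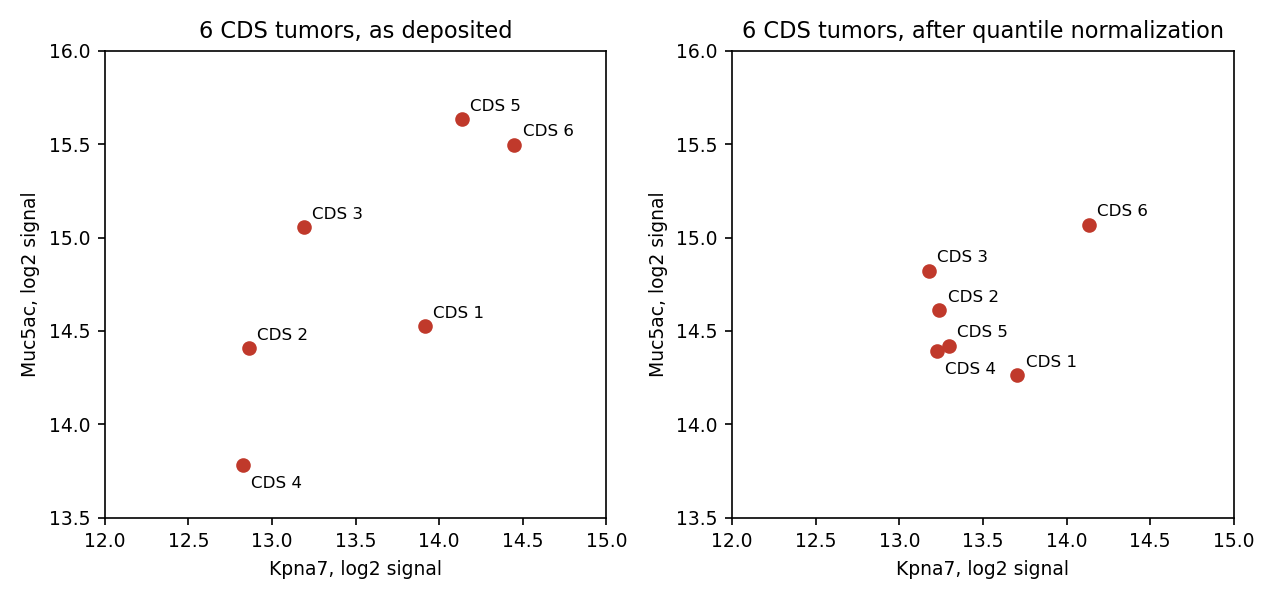
Muc5ac against Kpna7 in the 6 CDS tumors, as log2 signals as deposited (left) and after quantile normalization (right), with the same axes. Pearson r is 0.785 on the left and 0.427 on the right, where CDS 6 stands apart as the highest for both genes.

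None of the other genes of both pathways differed between CDS and ES tumors by as much as the pair. The pair was chosen as high in CDS tumors, so this contrast was largely set in advance and only describes the lists. Lists of other mucins, mucous cell genes, factors that act on Muc5ac in epithelium, enzymes of mucin-type O-glycans, importins, exportins with the Ran cycle, and oocyte and early embryo genes held 81 tested genes. In limma fits across all 12343 genes, a gene was called at an adjusted p under 0.05 and a log2 fold change of at least 1 in size. For CDS against ES tumors 7 of the 81 (8.64%) were called higher and 9 (11.1%) lower, beside 11.2% and 9.58% of all genes. On both scales, as deposited and after quantile normalization, these were 6 and 9, beside 9.37% and 9.46%. The median log2 fold change of the 81 was -0.04, against 0.02 over all genes.

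Against eMC CIC-DUX4, 2 of the 81 (2.47%) were called higher in CDS tumors and 9 (11.1%) lower, beside 5.14% and 12.7% of all genes, and on both scales 1 and 9, beside 4.05% and 12.5%. Against eMC empty, 9 (11.1%) were called higher and 9 (11.1%) lower, beside 14.6% and 5.81%, and on both scales 9 and 6, beside 12.9% and 4.24%. For eMC CIC-DUX4 against eMC empty, 28 (34.6%) were called higher and 6 (7.41%) lower as deposited, beside 46.4% and 4.62% of all genes. On both scales 2 were higher and 0 lower, beside 7.74% and 0.381%. Leaving out 1 sample moved some of these counts: the 9 higher against eMC empty were 17 without CDS 5, 2 without eMC empty 4 or 6 and 4 without eMC empty 5, and the 9 lower were 4 without eMC empty 4 and 5 without eMC empty 5. The 2 higher against eMC CIC-DUX4 were 1 without CDS 6, eMC CIC-DUX4 5 or eMC CIC-DUX4 6. With every sample kept, the share of pathway genes called higher was under that of all genes in each comparison. As deposited, the share called lower was above that of all genes against ES tumors, against eMC empty and at 48 h, and under it against eMC CIC-DUX4. On both scales the share at 48 h was under it instead (0 of 81, beside 0.381%), and the other directions held. These differences in share were not tested.

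Of 16 other mucins 11 had a probe set of their own. Of these 11, 9 were above the 75th percentile of the array in no ES tumor and 10 in no array of either eMC group. In the CDS tumors 9 were likewise above it in none. Muc5b, the gel-forming mucin next to Muc5ac on the chromosome, averaged 2.55 ± 0.78 in CDS tumors, 2.25 ± 0.38 in ES tumors, 3.69 ± 2.46 in eMC CIC-DUX4 and 2.41 ± 0.28 in eMC with the empty vector, and did not pass the filter. Muc1 and Muc4, membrane-bound mucins of epithelium, averaged 3.00 and 1.91 in CDS tumors. The other 2 were Cd164, a sialomucin of many cell types that was bright in all groups (13.66 in CDS and 13.36 in ES tumors), and Emcn. Muc2, Muc6 and Muc19, the other gel-forming mucins, were not analysed here.

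Emcn, the endothelial sialomucin endomucin, was the only 1 of the 4 tested mucins called in any comparison of the CDS tumors. Its log2 fold change was 6.78 ± 1.01 (adjusted p = 0.00016) against eMC empty and 4.62 ± 1.13 (adjusted p = 0.0128) against eMC CIC-DUX4, where the eMC are cultured cells. Of all genes, 14.6% and 5.14% were called higher in these comparisons. Against ES tumors the fold change of Emcn was 1.44 ± 1.07 and did not pass as deposited (adjusted p = 0.33). After normalization it was 2.22 ± 0.82 and passed (adjusted p = 0.0431). The summed linear signal of 8 endothelial genes, Emcn among them, was 4463 to 8598 in CDS tumors, 310 to 3987 in ES tumors, 73.2 to 999 in eMC CIC-DUX4 and 33.0 to 52.9 in eMC with the empty vector, and its part in the Emcn result was not tested.

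Of 28 genes listed for goblet and gastric mucous cells, 26 lay under the 75th percentile of every CDS array. The same count was 25 in ES tumors and 27 in each eMC group. Spdef, the factor that drives goblet cell maturation, averaged 2.58 in CDS tumors and 2.28 in ES tumors, and Agr2, which folds mucins in the endoplasmic reticulum, 2.04 and 3.10. Of the 10 tested, 2 were called higher in CDS than in ES tumors and 1 lower, beside 11.2% and 9.58% of all genes. Atp4a encodes the proton pump of the gastric parietal cell, so it stands on the list without being a gene of mucous cells. It was higher by 3.69 ± 0.86 (adjusted p = 0.0058), and by 3.47 ± 1.03 (adjusted p = 0.0242) against eMC empty. The secretoglobin Scgb3a1 was higher by 2.20 ± 0.59 (adjusted p = 0.0136), and lactoferrin, Ltf, fell by 4.67 on the log2 scale (adjusted p = 0.0093). Clca3a1 was lower against eMC empty (-2.06 ± 0.60, adjusted p = 0.0223), and against eMC CIC-DUX4 0 of the 10 were called as deposited. After normalization 3 were called higher there, Atp4a (3.61), Scgb3a1 (1.09) and Tff1 (1.04), and 2 lower. No share of all genes is given for that scale alone, so these counts cannot be set beside all genes. On both scales 0 of the 10 were called, beside 4.05% higher and 12.5% lower of all genes. Against eMC empty, 14.6% of all genes were called higher and 5.81% lower as deposited.

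Of 13 tested factors known to act on Muc5ac transcription in epithelium, 1 was called higher and 1 lower against ES tumors. Among all genes the shares were 11.2% and 9.58%. Stat6, the effector of interleukin-13 and interleukin-4, was higher by 2.13 ± 0.67 (adjusted p = 0.0315), and the zinc finger factor Klf4 lower (-5.23 ± 0.84, adjusted p = 0.00028). Against eMC CIC-DUX4, 0 were higher and 5 of the 13 lower, beside 5.14% and 12.7% of all genes. The epithelial factors Sox2 (-6.64 ± 0.78) and Gata6 (-5.44 ± 0.95), the ligand Tgfa (-4.05 ± 0.93) and Klf4 (-3.27 ± 1.06) led these, and the receptor Egfr was the other (-3.17 ± 0.92). Against eMC empty 3 were lower, beside 5.81% of all genes: Egfr (-3.00 ± 0.94), Sox2 (-2.96 ± 0.70) and Hif1a (-1.03 ± 0.28, not called after normalization). On both scales 1, 5 and 2 of the 13 were called lower against ES tumors, eMC CIC-DUX4 and eMC empty. The shares of all genes were 9.46%, 12.5% and 4.24%. After normalization alone these counts were 3, 6 and 8. No share of all genes is given for that scale alone, so these 3 counts cannot be set beside all genes.

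The enzymes of mucin-type O-glycans split in direction. Of 20 tested, 4 were called higher and 2 lower against ES tumors, beside 11.2% and 9.58% of all genes. On both scales these were 3 and 2, beside 9.37% and 9.46%. Galnt18 (4.97 ± 0.96), St6galnac2 (3.11 ± 0.79) and Galnt15 (2.77 ± 0.72) were higher on both scales. C1galt1, which builds the core 1 structure, and Galnt12, which starts chains, were lower (-3.96 ± 0.82 and -3.96 ± 1.29). Against eMC empty 4 were higher, led by Galnt10 (4.77 ± 1.03) and Galnt18 (4.21 ± 1.16), and C1galt1 was lower (-3.23 ± 1.01). Of all genes, 14.6% were higher and 5.81% lower there. Against eMC CIC-DUX4 0 were higher, and St3gal1 (-4.88 ± 0.98), Galnt3 (-4.69 ± 0.78) and C1galt1 (-4.23 ± 0.94) were lower. In that comparison 5.14% of all genes were higher and 12.7% lower. C1galt1 averaged 6.78 in CDS tumors, 10.74 in ES tumors, 11.01 in eMC CIC-DUX4 and 10.01 in eMC with the empty vector.

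Of the other importin alpha genes, Kpna2, Kpna3 and Kpna6 were measured, and each was above the 75th percentile of every array. Kpna2 averaged 12.14 in CDS tumors, against 13.31 in ES tumors and 13.82 in eMC empty, and was called lower in both comparisons (log2 fold changes -1.17 ± 0.25, adjusted p = 0.0029, and -1.68 ± 0.30, adjusted p = 0.00086). Kpna3 (11.00 in CDS tumors) and Kpna6 were not called in any comparison of the CDS tumors. Of all genes, 9.58% were called lower against ES tumors and 5.81% against eMC empty. Kpna1 and Kpna4 were not analysed here. The log2 differences of the 3 over ES tumors after normalization ran from -1.38 to -0.26, against 10.66 for Kpna7.

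Of 10 tested importin beta genes, 0 were called higher and 1 lower against ES tumors, Ipo5 (-1.18 ± 0.28), which was also lower against eMC empty (-1.26 ± 0.36) as deposited but not after normalization. Kpnb1, the partner of the importin alpha proteins, averaged 13.05 in CDS tumors and 12.83 in ES tumors, and was called higher against eMC CIC-DUX4 as deposited only (1.04 ± 0.28, adjusted p = 0.0209). Of 13 genes of nuclear export and the Ran cycle, 0 were higher against ES tumors, and Rcc1, which loads Ran with GTP (-3.39 ± 0.86), and Xpot, the exporter of tRNA (-1.07 ± 0.23), were lower. Beside both lists, 11.2% of all genes were called higher and 9.58% lower against ES tumors. These shares were 14.6% and 5.81% against eMC empty, and 5.14% and 12.7% against eMC CIC-DUX4. Against eMC empty Xpo5, the exporter of microRNA precursors, was higher (3.35 ± 1.03) and Ranbp1 lower (-1.18 ± 0.24, not called after normalization). After normalization Xpo5 was also called higher against eMC CIC-DUX4 (2.28).

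Oocyte and early embryo genes, the usual company of Kpna7, were dim. Of 24 oocyte genes 23, and of 19 early embryo genes 18, lay under the 75th percentile of every CDS array. The same counts were 23 and 19 in ES tumors and 24 and 19 in each eMC group. Zp2 and Zp3 of the egg coat averaged 2.61 and 2.56 in CDS tumors, against 2.12 and 1.80 in ES tumors. Of 6 tested oocyte genes, Lhx8 was called lower in CDS tumors in all 3 comparisons (-4.48 ± 1.52 against ES tumors). Of all genes, 9.58% were called lower against ES tumors, 12.7% against eMC CIC-DUX4 and 5.81% against eMC empty. Tle6, of the maternal complex under the egg membrane, was higher against eMC empty (3.19 ± 1.05, adjusted p = 0.0381), beside 14.6% of all genes. Utf1, a gene of pluripotent cells, was the only 1 of 2 tested early embryo genes called as deposited, also against eMC empty (3.19 ± 0.97, adjusted p = 0.0277), and it averaged 5.94 in CDS tumors and 5.22 in ES tumors. After normalization Utf1 (3.40) and Tle6 (1.33) were also called higher against eMC CIC-DUX4, and Dnmt3l lower against eMC empty (-1.39).

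**Figure D4:**
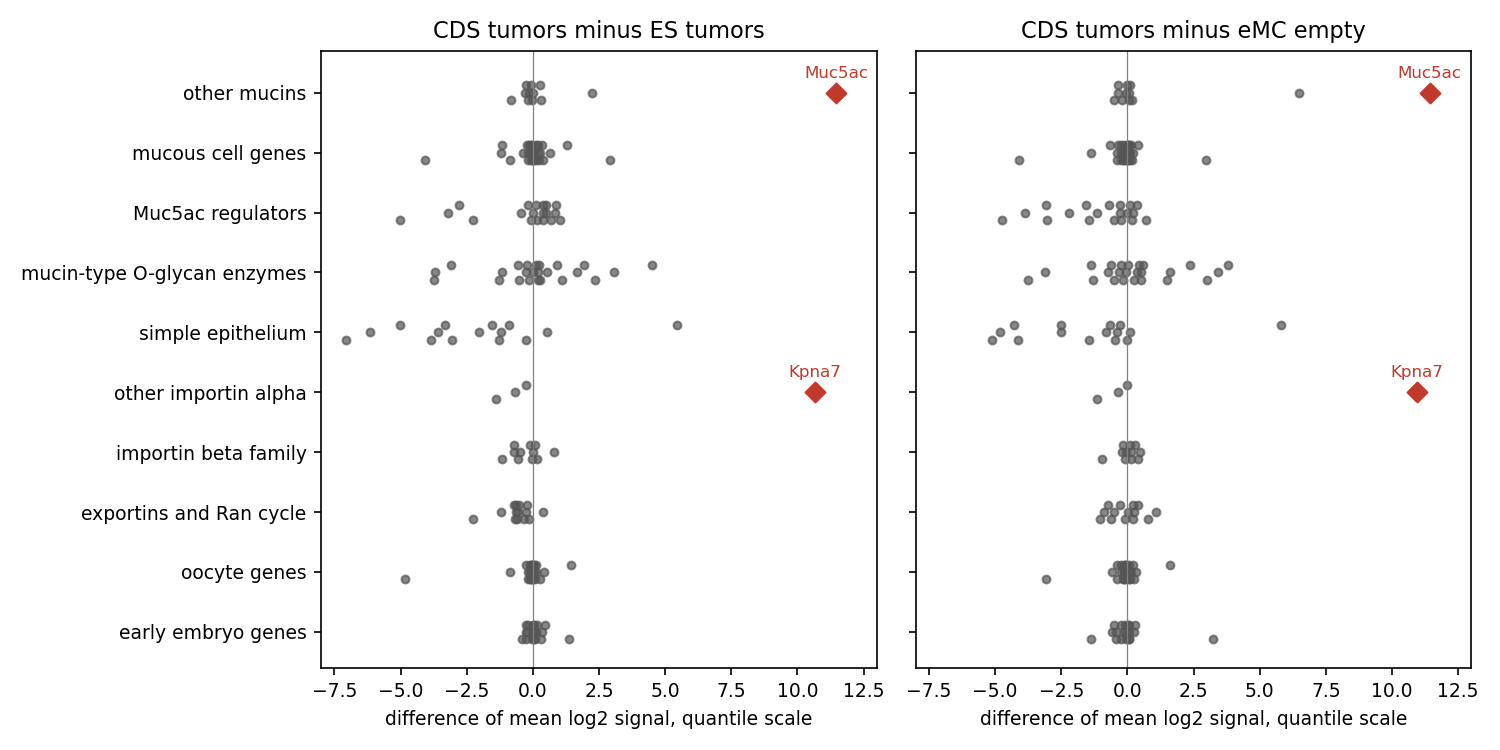
Each grey point is a gene of the list at left, placed at the difference of its mean log2 signal after quantile normalization, CDS tumors minus ES tumors (left panel) and CDS tumors minus eMC empty (right panel). Diamonds mark Muc5ac at 11.47 and 11.42 and Kpna7 at 10.66 and 10.93. The highest gene of the 10 lists drawn is at 5.43 (Elf3) on the left and 6.50 (Emcn) on the right.

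Markers of epithelium, the tissue where Muc5ac is usually made, were mostly under the 75th percentile of the array in the CDS tumors, as in the eMC. Of 15 genes of simple epithelium 13, and of 11 keratinocyte genes all 11, lay under the 75th percentile of every CDS array. The same counts were 5 and 3 in ES tumors, 11 and 9 in eMC CIC-DUX4 and 12 and 8 in eMC empty. Most probe sets of any array lie under that cut. The ES tumors were uneven: 1 to 10 of the 15 and 1 to 8 of the 11 lay above it in a single ES tumor. Against ES tumors 5 of the 15 were called lower, beside 9.58% of all genes, among them Prom1 (-7.27 ± 0.89), Esrp1 (-5.96 ± 1.50), Cdh1 (-5.06 ± 1.63) and Krt18 (-4.29 ± 1.46). On both scales 4 of the 15 were called lower, beside 9.46% of all genes. Krt18 averaged 3.23 in CDS tumors, 7.51 in ES tumors, 9.55 in eMC CIC-DUX4 and 5.92 in eMC with the empty vector.

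Elf3, an ETS factor of epithelium, was the exception. It averaged 8.54 ± 2.06 in CDS tumors, 2.64 ± 0.49 in ES tumors, 4.04 ± 2.14 in eMC CIC-DUX4 and 2.73 ± 0.39 in eMC with the empty vector. It was called higher in CDS tumors against ES tumors (5.90 ± 1.01, adjusted p = 0.00047), eMC CIC-DUX4 (4.50 ± 1.24, adjusted p = 0.0225) and eMC empty (5.80 ± 1.15, adjusted p = 0.0018), on both scales. It was the 1 gene of 15 called higher in each of them, beside 11.2%, 5.14% and 14.6% of all genes as deposited.

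None of the measured genes beside the pair on their chromosomes differed by as much. Here too the choice of the pair largely set this contrast in advance, so it is a description only. Of the 6 protein-coding genes on each side of Muc5ac, 9 had a probe set of their own and 7 passed the filter. Tollip, which damps Toll-like receptor signalling, was called higher in CDS tumors against eMC empty (2.74 ± 0.67, 1.60 ± 0.16 after normalization), Tspan4 higher against ES tumors (2.56 ± 0.37) and Chid1 lower against eMC CIC-DUX4 (-3.07 ± 0.86). After normalization Tollip was also called higher against ES tumors (1.51 ± 0.19) and eMC CIC-DUX4 (1.49 ± 0.15), and Chid1 higher against ES tumors (2.43 ± 0.40) and lower against eMC empty (-2.21 ± 0.34). Polr2l, Ap2a2, Mob2 and Dusp8 were not called in any comparison of the CDS tumors on either scale, and Brsk2 averaged 3.23 in CDS tumors and did not pass the filter. As deposited, 11.2% of all genes were called higher against ES tumors, 5.14% against eMC CIC-DUX4 and 14.6% against eMC empty. The shares called lower were 9.58%, 12.7% and 5.81%. No share is given for the normalized scale alone.

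Of the 6 genes on each side of Kpna7, 8 had a probe set of their own and 6 passed the filter. Smurf1, its nearest neighbour on one side, averaged 6.76 ± 2.30 in CDS tumors, 5.44 ± 1.87 in ES tumors, 7.61 ± 0.57 in eMC CIC-DUX4 and 4.14 ± 0.48 in eMC with the empty vector, and was not called between CDS tumors and any other group as deposited. After normalization Smurf1 was called higher in CDS tumors against ES tumors (1.68 ± 0.41, adjusted p = 0.0045), eMC CIC-DUX4 (1.84 ± 0.30, adjusted p = 0.00034) and eMC empty (1.35 ± 0.37, adjusted p = 0.0092). Gm4871, the nearest on the other side, averaged 1.77 in CDS tumors and 1.35 in ES tumors and did not pass the filter, nor did 1700018F24Rik. Arpc1a, a subunit of the Arp2/3 complex, was called higher against eMC CIC-DUX4 (1.04 ± 0.30) and eMC empty (1.04 ± 0.35), as deposited only, and Baiap2l1 lower against ES tumors (-4.85 ± 0.94). Tmem130 was called higher after normalization only, against eMC CIC-DUX4 (1.20 ± 0.19) and eMC empty (1.18 ± 0.20). Nptx2 and Pdap1 were not called for the CDS tumors on either scale. The shares of all genes given for the neighbours of Muc5ac hold here too, as deposited only.

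**Figure D5:**
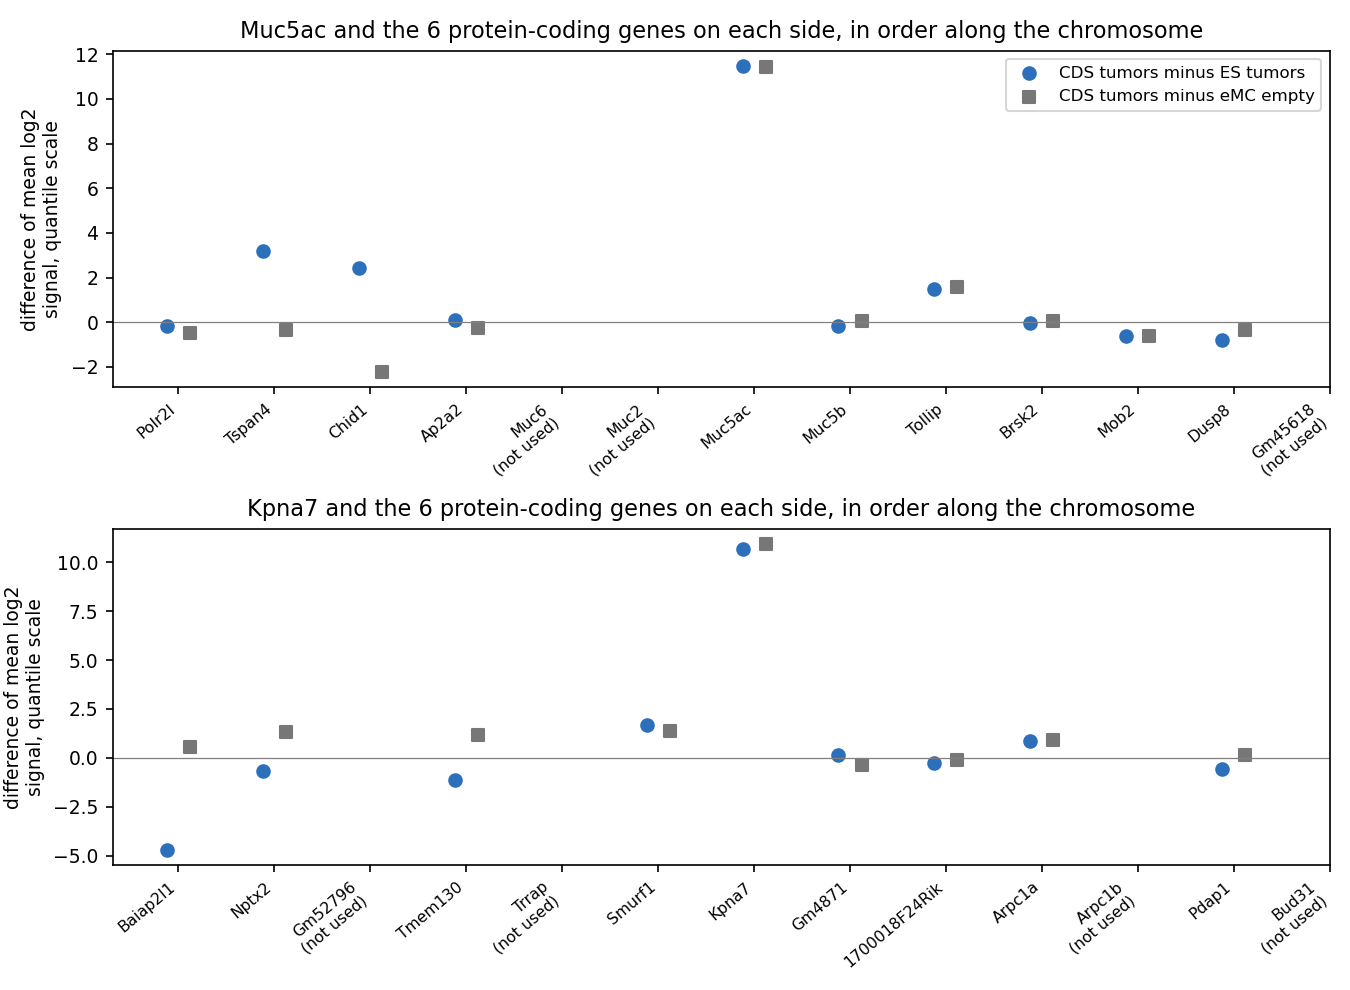
Differences of mean log2 signal after quantile normalization, CDS tumors minus ES tumors (circles) and minus eMC empty (squares), for Muc5ac and Kpna7 and 6 protein-coding genes on each side, in chromosome order and not to scale. Muc5ac and Kpna7 lie above 10, and no neighbour exceeds 3.18 (Tspan4). In the other direction Baiap2l1 lies at -4.68 against ES tumors.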

How the data were processed

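Total RNA of 20 samples was labelled with biotin and hybridised to mouse arrays of perfect-match probes, 1 array a sample. The deposited values are log2 signals, made by the authors with MAS5 per the submitters' processing notes. No version or setting of it is given in the labels. Of 45141 probe sets, 104 controls were left out. Linear signals, plus an offset of 1.42 (0.25 times the middle of the 20 array medians), were put on a log2 scale. Probe sets above their array's median in at least 4 of 20 arrays were kept, and each of 12343 genes was tested by its brightest probe set. Pairs of groups were fitted with limma 3.58.1 (lmFit, eBayes with trend, two-sided, Benjamini-Hochberg adjustment) in R 4.3.3, and called at an adjusted p under 0.05 and a log2 fold change of at least 1 in size. The fits were tested on simulated data. Gene names come from the platform annotation. The number of arrays limits the precision.

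Muc5ac and Kpna7, the gene lists and the alternatives were chosen with earlier results of these data known. Named genes are up to 4 called members of a list by size of change (2 by mean level where 0 were called), all importin alpha genes, the 5 genes most like each of the pair, the 5 with the widest gap, and the measured neighbours. Muc5b, Muc1, Muc4, Spdef, Agr2, Zp2, Zp3, Kpnb1 and Smurf1 were added for their known roles or position.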

Additional observations from a re-analysis of the deposited data

How the results depend on the processing

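Log2 differences of the CDS tumors moved by more than their spread in these cases. Over ES tumors Muc5ac was 11.47 and Kpna7 10.66 after quantile normalization, 11.23 and 10.18 with arrays scaled to the same median, 11.52 and 10.37 with an offset of 1 median and 10.07 and 8.85 with 4 medians. Over eMC empty Muc5ac was 11.17 and Kpna7 10.31 with arrays scaled to the same median, 11.30 and 10.30 with an offset of 1 median and 9.98 and 8.83 with 4 medians. Over eMC CIC-DUX4 Kpna7 was 8.36 with an offset of 4 medians, and without the 3 arrays of high median Muc5ac was 12.52 and Kpna7 11.60. For eMC CIC-DUX4 over eMC empty, leaving those arrays out gave -0.45 for Muc5ac and -0.32 for Kpna7, and scaling to the same median -0.27 for Kpna7. Leaving out 1 sample at a time gave 0.77 to 2.39 for Muc5ac and 0.21 to 1.51 for Kpna7 there, lowest without eMC CIC-DUX4 6. ES over eMC empty was 0.27 for Kpna7 after quantile normalization and 0.14 with scaled medians, against -0.14 as deposited. The cause was not tested. The larger offsets shrink these values by construction.

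Counts of called pathway genes depended on the setting. Against ES tumors they ran from 0 to 10 higher and 7 to 21 lower, against eMC CIC-DUX4 from 1 to 12 and 5 to 40, and against eMC empty from 2 to 18 and 4 to 18. Some groups share replicate numbers, but no label says what a number marks. Deviations of same-numbered samples correlated in some pairs and not in others (r from -0.19 to 0.49), so whether the numbers pair them is undecided. Neighbours called higher against ES tumors were 4 after quantile normalization, with no share of all genes for that scale alone. As deposited 1 was called higher, beside 11.2% of all genes. With the replicate block, CDS over eMC CIC-DUX4 rests on the shared numbers 5 and 6 alone, whose eMC CIC-DUX4 arrays have high medians. That fit gave 8.96 for Muc5ac and 9.49 for Kpna7. It called 40 pathway genes lower, with no share of all genes beside them, so that count does not describe the whole comparison.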
